A study of Homo sapiens with 9 samples.

Results

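The genes described here encode the proteins of the cytosolic ribosome, the particle on which all cytoplasmic mRNAs are translated. They were chosen by symbol: array rows with exactly 1 gene symbol in the platform annotation that reads RPL or RPS with a number, RPLP0 to RPLP2 or RPSA, keeping for each gene the row with the highest mean. This gave 63 genes of the 17047 with such a row, 39 of the large (60S) subunit and 24 of the small (40S) subunit. Of these, 54 passed the filter on low values and were tested, and RPL10, RPL10L, RPL17, RPL21, RPL37, RPL7A, RPS12, RPS20 and RPS3 did not. RPLP0, RPSA and RPS27A had no row with a single symbol and have no value here.

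The study measured total RNA of A375P, an established human melanoma cell line with mutant BRAF, on whole-transcript arrays. The cells received 1 µM PD184352, an inhibitor of the kinase MEK, 0.4 µM PLX4720, an inhibitor of the kinase RAF, or the solvent DMSO as control, each for 2, 6 or 24 h. All 9 groups share the cell line and the medium with 10% serum. There is 1 column of values for each group. The design text speaks of triplicate experiments, and the files do not show if a column averages several arrays. Each column is called an array below.

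A ribosome holds each of its core proteins once, apart from the stalk proteins, and cells keep the supply of the proteins near equal to that of ribosomal RNA. Most mRNAs for these proteins start with a C followed by an unbroken stretch of pyrimidines, the 5′ terminal oligopyrimidine (TOP) motif, which lets mTOR signalling, through LARP1, set their translation. TOP control acts on translation and mRNA stability, and an array of total RNA reads only the mRNA level. Ribosomal protein genes have many processed pseudogenes, copies of the mRNA inserted elsewhere in the genome, so a row that carries a member's name can match more than 1 place.

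The start sites show the feature that the mRNAs of this family share. Each line below gives 30 bases of the RefSeq gene start in GRCh38.p14, 5′ to 3′ on the gene's strand, of which 15 lie before the first transcribed base and 15 from it on. Capitals mark a pyrimidine run of at least 5 bases that begins with C at the first base. The first 5 genes were lower in inhibited cells at 24 h and carry the run. The next 2 were lower or just missed the threshold and do not carry it at the first base, though a run lies within 10 bases of it. The last 2 are paralogs with unlike values.
RPL27A: ttggcgaaggccttcCTTTTTCgtctgggc
RPLP1: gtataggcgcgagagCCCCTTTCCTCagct
RPL26: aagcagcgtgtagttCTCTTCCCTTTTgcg
RPL22: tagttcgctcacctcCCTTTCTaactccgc
RPL41: cggaacttcgcctttCTCTCggccttagcg
RPS28: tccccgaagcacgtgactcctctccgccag
RPL9: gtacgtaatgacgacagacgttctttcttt
RPS27L: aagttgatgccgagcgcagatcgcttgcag
RPS27: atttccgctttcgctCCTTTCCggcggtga
These windows lie at chr11:8682777-8682806 (+) for RPL27A, chr15:69452803-69452832 (+) for RPLP1, chr17:8383179-8383208 (-) for RPL26, chr1:6199581-6199610 (-) for RPL22, chr12:56116618-56116647 (+) for RPL41, chr19:8321481-8321510 (+) for RPS28, chr4:39458908-39458937 (-) for RPL9, chr15:63157463-63157492 (-) for RPS27L and chr1:153990747-153990776 (+) for RPS27. The runs are 7 bases long in RPL27A, 11 in RPLP1, 12 in RPL26, 7 in RPL22, 5 in RPL41 and 7 in RPS27.

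A RefSeq start was found for 53 of the 63 genes, and 39 of them (73.6%) had the run at the first base. The share was 6.74% of the 10190 genes tested that had a start and 6.67% of the 60 mitochondrial ribosomal protein genes. A run within 10 bases of the first base was found in 46 of the 53 genes (86.8%) and in 41.7% of the genes tested. Within the 300 bases of the promoter, read on both strands, 37.7% of the members held CCGGAAG, the core of ETS factor sites, as did 24 of the 60 mitochondrial ribosomal protein genes, against 19.1% of the genes tested. The E-box CACGTG, the core MYC binds, was in 7.55% of the members and 12.3% of the genes tested, the GC box GGGCGG in 58.5% and 73.6%, and TATAAA in 7.55% and 8.99%. On the opposite strand CCGGAAG reads CTTCCGG, and its letters CTTCC also meet the rule for the pyrimidine run. A match near the first base can therefore count for both features. These matches describe the sequences only.

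All levels are log2(intensity + 1), so a step of 1 is about a doubling, and levels of different genes are not set against each other because each row has its own probes. A change is the mean of both inhibitors minus DMSO at the same time, in log2 units, with its standard error (SE). It was tested with limma across all 12785 genes above the filter, with p-values adjusted by the Benjamini-Hochberg method, and genes with an adjusted p below 0.05 are named as called. The spread behind each SE is that between the PD184352 and the PLX4720 array of the same time, with 3 residual degrees of freedom, and nothing in the labels says that the arrays came from separate cultures. Each change at a given time rests on 1 DMSO array. In RNA of a whole culture, fewer cells with a transcript and less transcript per cell cannot be told apart.

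The median intensity of the arrays lay between 98.96 and 102.35, and no 2 arrays held identical values. All 9 genes of a list of known ERK pathway targets were called lower at 6 h and at 24 h. Of the melanocyte markers with a row, 7 of 8 were above the filter, none was at 0, and their summed intensity was 4545 to 7053 in inhibited cells and 4936 to 5080 in DMSO cells. At 24 h 5 of these 7 markers were called higher, with a median change of 0.51. The fibroblast markers summed to 563 to 594 in inhibited cells and 525 to 560 in DMSO cells, the keratinocyte markers to 484 to 517 and 485 to 534, and the leukocyte markers to 437 to 493 and 452 to 475. Above the filter were 5 of 6 fibroblast, 2 of 4 keratinocyte and 3 of 5 leukocyte markers with a row, so passing it does not separate the cell types. The lowest value of any row was 3.31, so no marker of these types was at 0 either. The part of these marker levels in the results below was not tested.

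The placement of the rows split the family. Row identifiers on this array run along the chromosomes, though not in a single pass over each. The RPL22 row comes after the RPS27 row, while RPL22 lies before RPS27 on their shared chromosome. The named rows just before and after a row thus show its chromosome and rough position, and strand was not used. A row was taken to lie beside its own gene if that gene's RefSeq start fell between those of the 3 named rows on either side. This held for 93.9% of the 19325 rows with 1 symbol, but only for 41.6% of the 113 rows of the members. Of the 63 chosen rows, 40 lay beside their own gene and 23 did not, 20 of these among genes of another chromosome. Among the 54 tested genes the numbers were 39 and 15. The split was made after the values had been seen, but it uses the placement only, and results are given for all members and for both groups. In the rows placed elsewhere the arrays of the 2 compounds differed more from each other, by a median of 0.19 over genes and times against 0.09 in the rows beside their own gene and 0.08 over all genes tested.

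At 2 h no ribosomal protein gene was called, where 0.0704% of all genes tested were called lower and 0.0156% higher, and 5 of 54 members had an unadjusted p below 0.05 by limma, as did 948 of the 12785 genes tested. The median change of the 54 members was 0.02, against -0.02 over all genes tested. The largest differences were those of RPS27L at 0.37 (SE 0.09, adjusted p = 0.328), RPL36A at 0.36 (SE 0.11, adjusted p = 0.459) and RPL5 at 0.32 (SE 0.09, adjusted p = 0.404). On the other side RPL31 stood at -0.29, RPL13A at -0.26 and RPLP2 at -0.20, with adjusted p-values of 0.777, 0.787 and 0.741 by limma. RPL36A had 8.38 with PD184352 and 8.21 with PLX4720 at 2 h, against 7.93 in DMSO cells, and RPL31 had 7.58 and 7.05, against 7.60. RPL13A had 9.74 and 9.27 at 2 h, against 9.77 in DMSO cells. In RPL31 and RPL13A the PLX4720 array alone was low. Of the 6 genes named for 2 h only RPS27L was read by a row beside its own gene.

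At 6 h most members lay a little below the DMSO array, but 1 was called. RPLP1, which with its partner RPLP2 forms the flexible stalk that recruits elongation factors, stood at 8.88 with PD184352 and 8.80 with PLX4720, against 9.27 in DMSO cells. The PLX4720 array lay below all 3 DMSO arrays, which held 9.05, 9.27 and 8.82 at 2, 6 and 24 h, and the PD184352 array lay between those of 24 h and 2 h. The change was -0.43 (SE 0.10, adjusted p = 0.0476 by limma). Called lower were 1 of 54 members and called higher 0, against 2.74% and 0.54% of all genes tested. Next in size were RPS24 at -0.35 (SE 0.09, adjusted p = 0.0809), RPL37A at -0.31 (SE 0.12, adjusted p = 0.254) and, on the higher side, RPS27L at 0.24 (SE 0.09, adjusted p = 0.243), RPS2 at 0.19 and RPL12 at 0.18. RPS24, a small subunit protein mutated in Diamond-Blackfan anaemia, had 7.98 with PD184352 and 8.01 with PLX4720, against 8.35 in DMSO cells. RPL37A had 8.40 and 8.54, against 8.78. RPL12, a protein of the stalk base, had 10.41 and 10.22, against 10.13, and RPS2 had 12.33 and 12.46, against 12.20. In RPS24 and RPL37A the DMSO array of 6 h was the highest of the 3 DMSO arrays, and in RPS2 it was the lowest.

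The small 6 h difference was spread over the family. The median change was -0.13 over the 54 members and -0.02 over all genes tested. Among the 39 rows beside their own gene it was -0.19, and 36 were below 0 where 55.4% of all genes tested were; 33 of the 39 were below DMSO with both compounds, as were 42.7% of all genes tested. Among the 15 rows placed elsewhere the median was 0.08 and 5 were below 0. The DMSO array of 6 h was itself high in these genes: against the DMSO array of 2 h, the 39 genes had a median of 0.13 with 5 below 0. Over all genes tested that median was 0.03, with 5597 of 12785 below 0. Against the mean of all 3 DMSO arrays the median change of the 39 at 6 h was -0.06, and RPLP1 then had a change of -0.21 (adjusted p = 0.459 by limma). RPLP1 at 6 h missed the threshold under 9 of 17 alternatives, and without the 2 h or 6 h array of either compound 0 members were called.

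At 24 h 10 ribosomal protein genes changed, 9 lower and 1 higher, of 54 tested. Of all genes tested 19.2% were called lower and 12.5% higher, so the share of members called lower, 9 of 54, was near that background, and the share called higher was below it. The changes were small. No member reached 2-fold, which 3.97% of the genes tested did, and the median change was -0.12 against -0.01 over all genes tested.

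**Figure D1:**
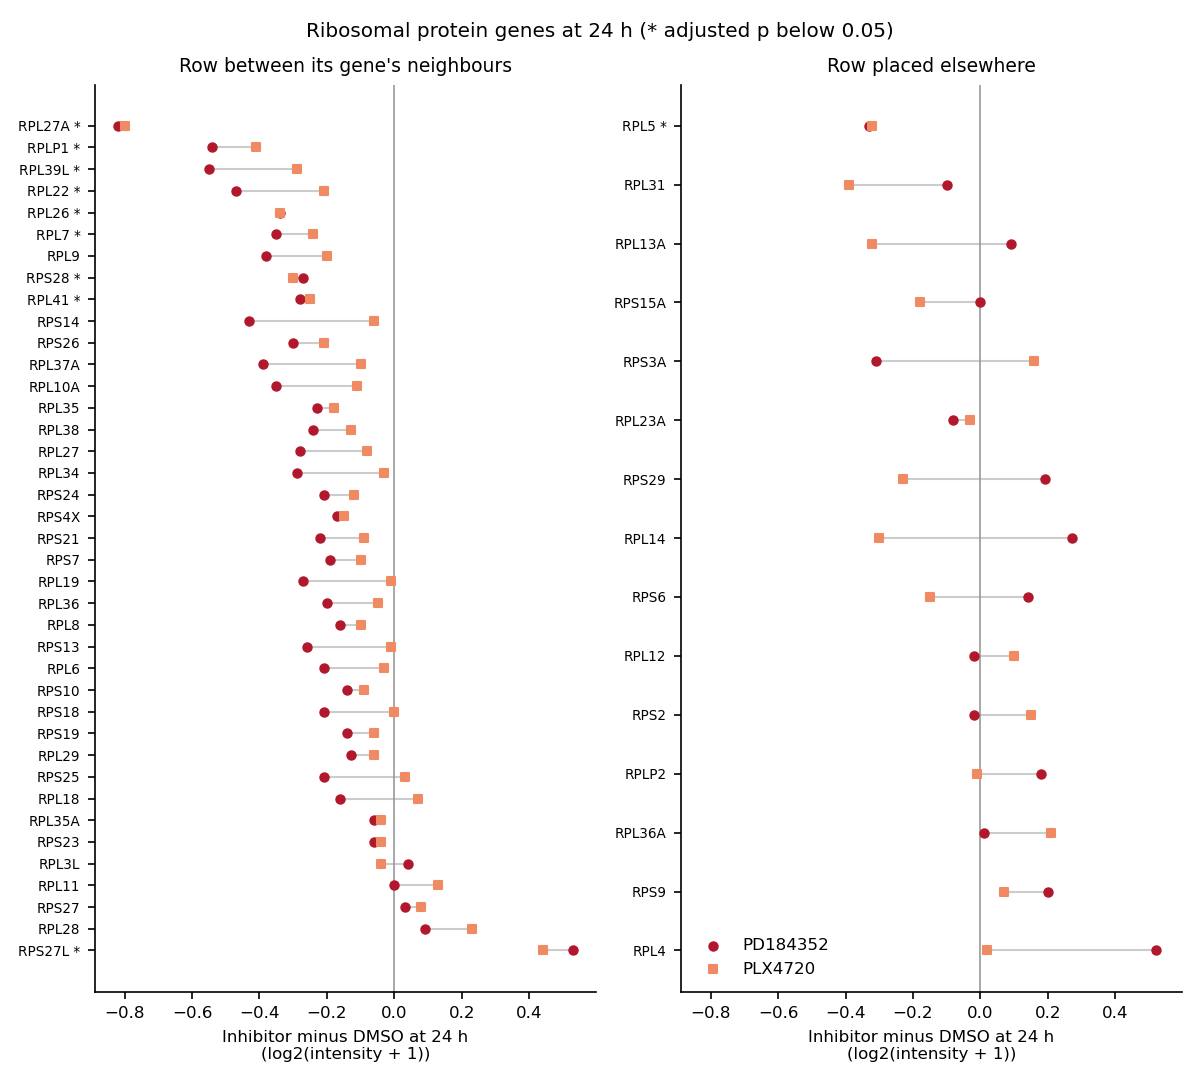
Difference between each inhibitor array and the DMSO array at 24 h for the 54 tested ribosomal protein genes, in log2(intensity + 1), with circles for PD184352, squares for PLX4720 and a star at an adjusted p below 0.05. The left panel holds the 39 genes read beside their own gene, where 31 lay below 0 with both compounds, as did 44.1% of all genes tested; the right panel holds the 15 read elsewhere, where the compounds often lie on opposite sides of 0.

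Among the large subunit proteins, RPL27A fell most. Its level was 8.91, 9.10 and 7.82 at 2, 6 and 24 h with PD184352, 9.05, 8.87 and 7.83 with PLX4720, and 8.98, 9.17 and 8.63 with DMSO. Both compounds were near DMSO at 2 h and both 24 h inhibitor arrays lay below every other array. The change at 24 h was -0.81 (SE 0.11, adjusted p = 0.000336 by limma), 1.75-fold lower. A second row with this symbol, placed among genes of another chromosome, stood at 0.01 at 24 h.

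RPLP1 of the stalk had 9.20, 8.88 and 8.29 with PD184352, 9.05, 8.80 and 8.41 with PLX4720, and 9.05, 9.27 and 8.82 with DMSO. At 24 h both inhibitor arrays were again below all DMSO arrays, with a change of -0.48 (SE 0.10, adjusted p = 0.00477 by limma). Its partner RPLP2 had 7.84, 7.89 and 8.33 with PD184352, 7.96, 8.14 and 8.14 with PLX4720, and 8.10, 7.91 and 8.15 with DMSO. The RPLP2 row was placed elsewhere, and its change of 0.09 (SE 0.12) at 24 h did not pass the test, with an adjusted p of 0.676 by limma.

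RPL26, which lies near the exit of the tunnel for the nascent chain, had 8.12, 8.20 and 7.66 with PD184352, 8.10, 8.04 and 7.66 with PLX4720, and 8.01, 8.29 and 8.0 with DMSO. Both 24 h inhibitor arrays, which differed by 0.01, lay below all others, and the change was -0.34 (SE 0.09, adjusted p = 0.0185 by limma). RPL22, an RNA-binding protein that ribosomes can do without, had 8.99, 8.93 and 8.50 with PD184352, 9.12, 9.04 and 8.75 with PLX4720, and 9.05, 9.12 and 8.97 with DMSO. Both 24 h inhibitor arrays were lowest here too, PD184352 the lower, with a change of -0.34 (SE 0.12, adjusted p = 0.0492 by limma). That call was lost under 10 of 17 alternatives.

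RPL5, which with RPL11 and the 5S rRNA forms a particle that can bind MDM2, had 8.55, 8.32 and 8.28 with PD184352, 8.50, 8.41 and 8.28 with PLX4720, and 8.20, 8.31 and 8.60 with DMSO. The inhibitor arrays were above DMSO at 2 h and below it at 24 h, and the DMSO arrays themselves spanned as much. The change at 24 h was -0.32 (SE 0.09, adjusted p = 0.0158 by limma), but -0.09 against the mean of the 3 DMSO arrays (adjusted p = 0.542). The RPL5 row was on the right chromosome but not between its gene's neighbours, and the row of RPL5 that was had a mean intensity of 20.1. RPL11 had 8.56, 8.41 and 8.30 with PD184352, 8.52, 8.45 and 8.43 with PLX4720, and 8.63, 8.70 and 8.30 with DMSO. Its 24 h arrays did not separate, with a change of 0.06 (adjusted p = 0.683 by limma).

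RPL7 had 8.33, 8.10 and 7.80 with PD184352, 8.26, 8.16 and 7.91 with PLX4720, and 8.03, 8.42 and 8.15 with DMSO. Both 24 h inhibitor arrays lay below the DMSO arrays, with a change of -0.30 (SE 0.09, adjusted p = 0.0302 by limma). Another RPL7 row, placed among genes of another chromosome, went the other way, at 0.62 at 6 h and 0.6 at 24 h. A dim further row stood at 0.3 and -0.3. RPL9, near the base of the stalk, had 8.55, 8.38 and 8.06 with PD184352, 8.54, 8.51 and 8.24 with PLX4720, and 8.56, 8.70 and 8.44 with DMSO. Its arrays separated in the same way, but its change of -0.29 (SE 0.10) missed the threshold, with an adjusted p of 0.0528 by limma. RPL41, the shortest of the family, had 9.59 and 9.62 in inhibited cells at 24 h, against 9.87 in DMSO cells, a change of -0.26 (adjusted p = 0.0367 by limma). That call was lost under 9 of 17 alternatives, among them the average of all 3 RPL41 rows, where the value was 0.05 (adjusted p = 0.807).

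Of the small subunit proteins RPS28 was called lower. RPS28, at the channel through which mRNA leaves, had 7.08, 7.05 and 7.03 with PD184352, 7.11, 7.02 and 7.0 with PLX4720, and 6.98, 7.29 and 7.30 with DMSO. Here the inhibitor arrays stayed level while the DMSO arrays of 6 and 24 h were higher than that of 2 h. The change was -0.28 (SE 0.08, adjusted p = 0.0258 by limma), and -0.17 against the mean of the 3 DMSO arrays (adjusted p = 0.177). RPS26, beside RPS28 at that channel, had 9.20, 9.0 and 8.55 with PD184352, 9.17, 9.06 and 8.64 with PLX4720, and 9.34, 9.23 and 8.84 with DMSO. Its levels were lowest at 24 h under all 3 treatments, and its change of -0.25 (SE 0.09) just missed the threshold, with an adjusted p of 0.0501 by limma.

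The rises at 24 h were fewer. RPS27L, a paralog of RPS27 and in human cells a target of p53, was the only member called higher. It had 7.48, 7.80 and 8.13 with PD184352, 7.52, 7.68 and 8.03 with PLX4720, and 7.13, 7.50 and 7.59 with DMSO. Both inhibitors were above DMSO at all 3 times, while DMSO itself climbed between 2 and 24 h. The change at 24 h was 0.49 (SE 0.09, adjusted p = 0.00257 by limma), 1.40-fold higher. RPS27 had 8.88, 8.81 and 8.89 with PD184352, 8.89, 8.85 and 8.93 with PLX4720, and 8.73, 8.92 and 8.86 with DMSO. Its arrays did not separate, with a change at 24 h of 0.06 (SE 0.08) and an adjusted p of 0.703 by limma; the difference between the paralogs was not tested.

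None of the other members at the upper end passed the test. RPL4 had 10.28, 10.35 and 10.83 with PD184352, 10.23, 10.25 and 10.33 with PLX4720, and 10.41, 10.37 and 10.32 with DMSO. Its difference of 0.27 (adjusted p = 0.264 by limma) came from the PD184352 array of 24 h. RPL28 had 8.24, 8.42 and 8.55 with PD184352, 8.43, 8.56 and 8.69 with PLX4720, and 8.47, 8.54 and 8.46 with DMSO. It was read beside its own gene, and both 24 h inhibitor arrays lay above all DMSO arrays, with a difference of 0.16 (adjusted p = 0.322 by limma). RPS9 had 9.04, 9.07 and 9.12 with PD184352, 8.89, 8.76 and 8.99 with PLX4720, and 9.09, 8.90 and 8.92 with DMSO, a difference of 0.13 (adjusted p = 0.523 by limma). RPL36A, close to the exit site for spent tRNA, and RPS2, close to the mRNA entry, stood at 0.11 and 0.07, with adjusted p-values of 0.525 and 0.712 by limma. Like RPL4 and RPS9, both were read by rows placed elsewhere.

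**Figure D2:**
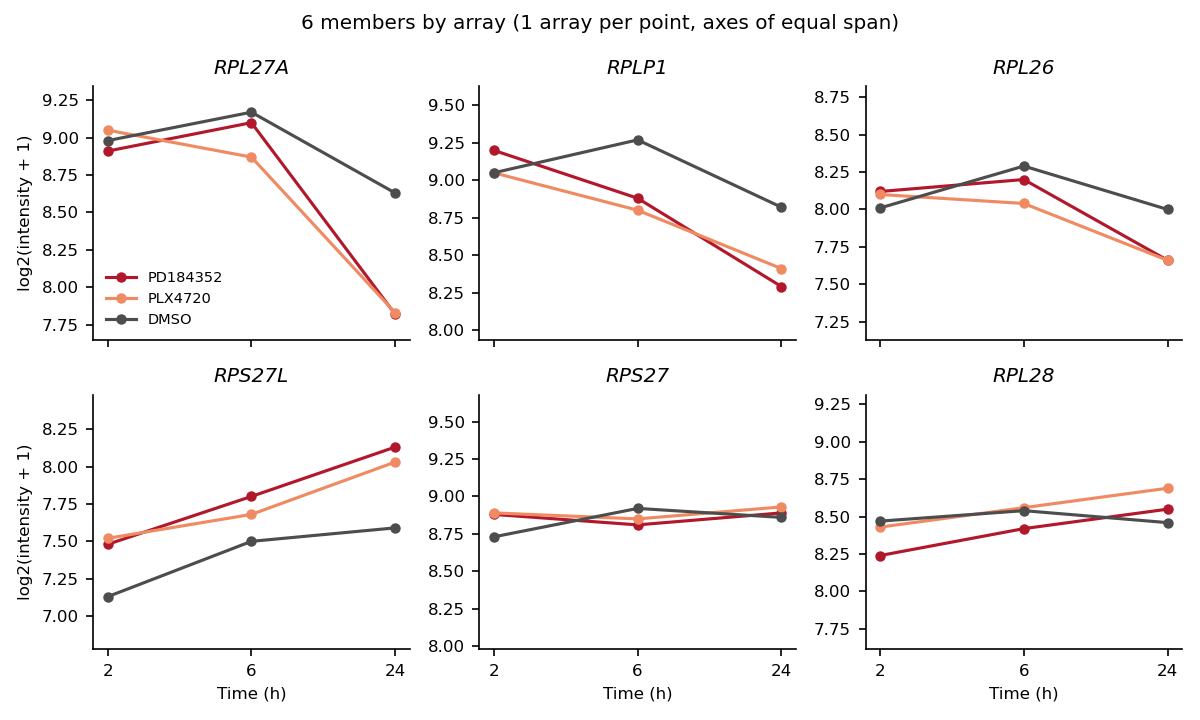
Level of 6 ribosomal protein genes in each of the 9 arrays, as log2(intensity + 1) against time in hours, with lines for PD184352, PLX4720 and DMSO and axes of equal span. RPL27A, RPLP1 and RPL26 lie below DMSO at 24 h with both inhibitors, RPS27L lies above it at all times, and RPS27 stays within 8.73 to 8.93.

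By subunit, the 60S genes read beside their own gene had 7 of 24 called lower and 0 higher at 24 h, with a median of -0.18. The 40S genes so read had 1 of 15 lower and 1 of 15 higher, with a median of -0.13. Over all genes tested 19.2% were called lower and 12.5% higher, and no test compared the subunits. Among all 39 genes beside their own gene, 8 (20.5%) were lower, near that background, and 1 (2.56%) higher, below it. Their median was -0.15, and 34 were below 0 where 51.7% of all genes tested were. Of the 15 genes read elsewhere 1 was called, the RPL5 row described above, and the median was -0.01 with 9 below 0. Both 24 h inhibitor arrays lay below all 3 DMSO arrays in 30 of 54 members, against 30.6% of all genes tested, and above them in 2, against 27.7%. Of those 30, 28 were among the 39 genes beside their own gene and 2 among the 15 elsewhere.

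For 6 genes whose chosen row lay elsewhere, another row beside the gene allowed a comparison of 2 rows with the same name. Strand was not checked for any of these rows. For RPL5 the row that met the placement rule was dim, with the mean intensity of 20.1 given above. It stood at 0.46 at 24 h (0.56 with PD184352 and 0.37 with PLX4720), against -0.32 in the chosen row. In the other 5 genes the row at the gene stood at -0.23 for RPL14, -0.15 for RPL36A, -0.16 for RPS15A, -0.18 for RPS6 and -0.10 for RPS9. The brighter row placed elsewhere stood at -0.01, 0.11, -0.09, -0.01 and 0.13 for the same genes. In 5 of the 6 genes, RPL5 being the exception, the row at the gene was lower than DMSO with both compounds. For RPS6, the substrate of the S6 kinases, that row stood at -0.24 with PD184352 and -0.12 with PLX4720. A further dim RPS15A row, with an identifier far from that of the first, also met the placement rule and stood at -0.74. With every member read by its row beside its own gene where it had one, 9 of 44 were called lower and 1 higher. In that fit 2452 of all 12772 genes tested were called lower and 1599 higher.

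Removing the PD184352 array of 24 h left 4 members lower and 1 higher. Of the 10 calls, RPL22, RPL39L, RPL41, RPL7 and RPS28 were lost in that fit, with adjusted p-values between 0.0701 and 0.235 by limma. RPL27A, RPLP1 and RPS27L stayed past the threshold under each of the 17 alternatives run for them, and RPL26 under each of 16. Against the mean of the 3 DMSO arrays 22 members were called lower and 1 higher at 24 h, where 2940 and 2008 of the 12785 genes tested were. Bright genes were lower in general: the 1279 genes tested with the highest mean levels had a median change of -0.17 at 24 h, with 494 lower and 145 higher. The 99th percentile of intensity was 1550 to 1654 in inhibited cells and 1681 to 1754 in DMSO cells. The 9 members among these 1279 had a median of -0.07 with 1 called lower, and the part of this shift in the members' changes was not tested.

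The inhibited cells also changed between their own times. At 24 h against 2 h, without any DMSO array in the difference, 28 of 54 members were lower and 3 higher, where 19.2% of all genes tested were lower and 22.3% higher. Among the 39 genes beside their own gene 27 were lower and 2 higher, with a median of -0.30. RPL27A led with -1.16 (SE 0.09, adjusted p = 4.97e-06), followed by RPLP1 at -0.78 (SE 0.08, adjusted p = 3.68e-05) and RPS26 at -0.59 (SE 0.07, adjusted p = 8.78e-05), all by limma. RPS27L at 0.58, RPLP2 at 0.34 and RPL28 at 0.28 were the members called higher. At 6 h against 2 h none was called (1.45% of all genes tested were lower and 3.93% higher), and 6 had an unadjusted p below 0.05 by limma, as did 2658 of the 12785 genes tested.

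Part of that course was shared by DMSO cells. Over the 39 genes, the median difference between 24 h and 2 h was -0.35 with PD184352, -0.25 with PLX4720 and -0.13 with DMSO. In DMSO cells 28 of the 39 were lower at 24 h than at 2 h, among them 22 of those called lower in inhibited cells. Over all genes tested 6023 of 12785 were lower in that DMSO difference. RPS26, RPS13 and RPL18 had DMSO differences of -0.50, -0.38 and -0.34, while RPL26 had -0.01 and RPL7 had 0.12. Without the PD184352 array of 2 h, or without that of 24 h, 20 members were called in place of 31.

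**Figure D3:**
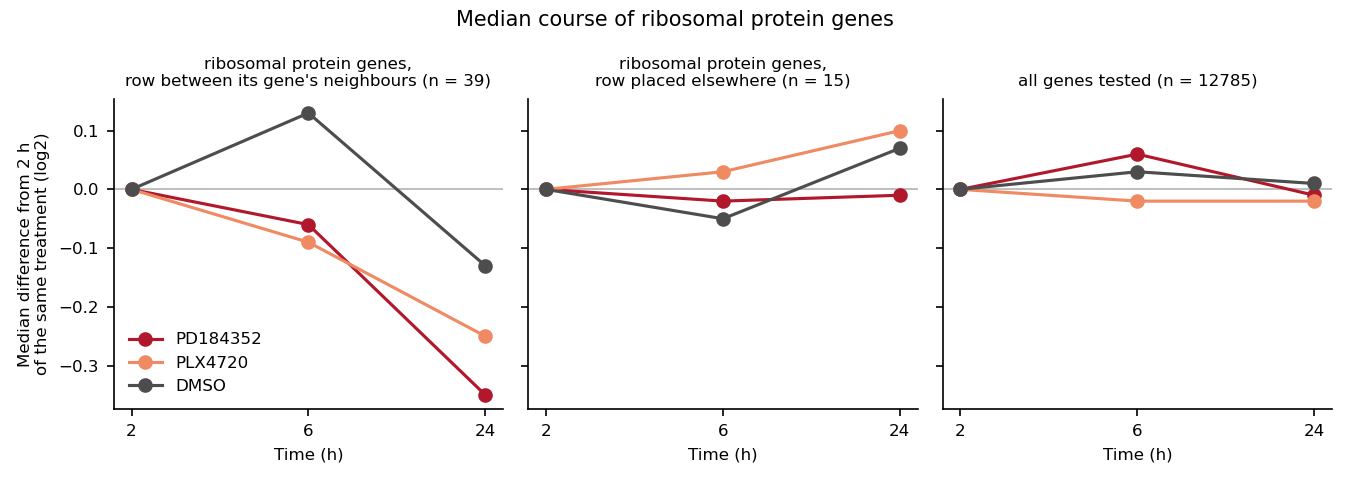
Median difference from the 2 h array of the same treatment, in log2 units against time in hours, for the 39 ribosomal protein genes read beside their own gene, the 15 read elsewhere and all 12785 genes tested, with lines for PD184352, PLX4720 and DMSO. In the first panel the lines end at -0.35, -0.25 and -0.13 at 24 h, while DMSO is at 0.13 at 6 h; in the last panel all stay near 0.

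The compounds were compared with each other over the 3 times, at unequal doses. None of the 54 members was called between PD184352 and PLX4720, where 0.0% of all genes tested were, and 6 had an unadjusted p below 0.05 by limma, as did 169 of the 12785. All 6 members were read by rows placed elsewhere. All 54 had a 95% interval for the compound difference that stayed inside 2-fold either way, and for the 39 genes beside their own gene it stayed between -0.44 and 0.43. RPL14 had 11.43, 10.73 and 11.42 with PD184352 and 10.69, 10.70 and 10.85 with PLX4720, against 10.99, 10.81 and 11.15 with DMSO, an average difference between compounds of 0.45 (SE 0.13). RPS3A had 11.10, 11.28 and 11.27 with PD184352 and 11.30, 11.58 and 11.74 with PLX4720, against 10.90, 11.34 and 11.58 with DMSO, an average difference of -0.32 (SE 0.09). RPL14 was higher and RPS3A lower with PD184352 at each time. RPL13A had 9.74, 9.46 and 9.92 with PD184352 and 9.27, 9.41 and 9.51 with PLX4720, an average difference of 0.31 (SE 0.10). RPL23A, which lies at the tunnel exit, had 8.28, 8.26 and 7.86 and 7.70, 7.89 and 7.91, an average difference of 0.30 (SE 0.12). Of the genes beside their own gene, RPL37A had the lowest average difference at -0.18, followed by RPL39L and RPL22 at -0.17 each.

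At 24 h alone the PD184352 array was lower than the PLX4720 array in 35 of the 39 genes, and in 5 of the 15 genes read elsewhere. The median difference over the 39 was -0.11, against -0.0 over all genes tested. This is a single array of each compound, and the median difference over the 39 was -0.03 at 6 h and -0.04 at 2 h. Against DMSO over the 3 times, PD184352 gave 0 calls (background 0.0469% lower) with 10 of 54 members at an unadjusted p below 0.05 by limma, as were 2293 of the 12785 genes tested. PLX4720 gave 0 calls (background 0.00782% lower) with 6 such members, against 1572 of all genes tested.

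Several members have a paralog, and no test compared the genes of a pair. RPL39L, the paralog of the exit tunnel protein RPL39, had 6.42, 6.48 and 5.98 with PD184352, 6.44, 6.71 and 6.24 with PLX4720, and 6.47, 6.70 and 6.53 with DMSO, a change at 24 h of -0.42 (SE 0.13, adjusted p = 0.0278 by limma). RPL22L1 had 7.31, 7.25 and 6.69 with PD184352, 7.35, 7.12 and 6.92 with PLX4720, and 7.25, 7.63 and 7.58 with DMSO. It fell by 0.78 at 24 h (SE 0.11, adjusted p = 0.000465 by limma), beside the -0.34 of RPL22 itself. RPL7L1, a paralog of RPL7, had 7.36 and 7.49 in inhibited cells at 24 h, against 7.72 in DMSO cells, a change of -0.29 (adjusted p = 0.0453 by limma) beside the -0.30 of RPL7.

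The remaining paralogs lay near DMSO at 24 h. RPL26L1 had 8.24 and 8.37 in inhibited cells at 24 h, against 8.25 in DMSO cells, and RPL36AL had 6.59 and 6.55, against 6.55. RPL3L, known from heart and skeletal muscle, had 8.01 and 7.93, against 7.97. RPL10 and its testis paralog RPL10L were below the filter, at 5.77 to 6.18 and 3.98 to 4.58 over the 9 arrays. All 9 untested members lay between 3.27 and 6.44. Of the 12 tested genes in the list of paralog pairs 6 were lower and 1 higher at 24 h, where 19.2% and 12.5% of all genes tested were. FAU, which encodes RPS30 fused to a ubiquitin-like protein, had 9.53 and 9.60 in inhibited cells, against 9.68 in DMSO cells, a change of -0.12 (adjusted p = 0.572 by limma).

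Members with a disease or signalling role were counted as lists. Of the 16 genes mutated in Diamond-Blackfan anaemia, an inherited failure of red cell production, RPL26, RPL5 and RPS28 were lower at 24 h and 0 higher, with a median of -0.13. These 3 of 16 are near the 19.2% of all genes tested that were lower. Of the 4 tested genes whose proteins bind MDM2, RPL5 was lower and RPL11, RPS7 and RPS14 were not called. Among those read beside their own gene, the genes with a TOP run at the first base had a median of -0.13 at 24 h (25 genes, -0.81 to 0.16). Those without it there had -0.17 (10 genes, -0.29 to 0.49). Of the latter, RPL10A, RPL19, RPL9, RPS26, RPS28 and RPS7 had a run within 10 bases of the first base. The groups therefore do not cleanly separate mRNAs with and without a TOP motif.

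Lists of genes outside the cytosolic ribosome, among them ribosome biogenesis genes, mitochondrial ribosomal proteins and translation factors, had lower median changes at 24 h. Of 32 ribosome biogenesis genes 29 were lower, with a median of -0.72, led by LYAR at -1.57, RRS1 at -1.18 and NOLC1 at -1.11. Of 15 chaperones and importers that carry ribosomal proteins to the nucleolus 12 were lower, with a median of -0.54, among them the importin KPNB1 at -0.59. RRS1 is in both of these lists. Of 67 mitochondrial ribosomal protein genes 24 were lower and 3 higher, with a median of -0.24. Of 38 translation factors 17 were lower and 1 higher, with a median of -0.20. Over all genes tested 19.2% were lower and 12.5% higher. No test compared these lists with the ribosomal proteins, and all share the same arrays.

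**Figure D4:**
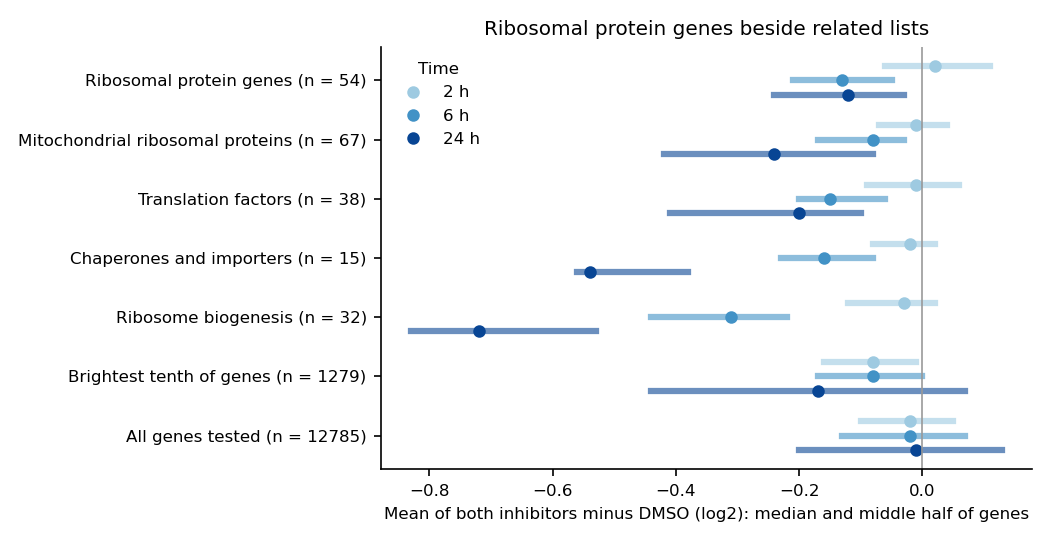
Change of each gene list at 2, 6 and 24 h as the mean of both inhibitors minus DMSO in log2 units, with points for the median and bars between the quartiles of the genes. At 24 h ribosomal protein genes lie at -0.12, ribosome biogenesis genes at -0.72 and all genes tested at -0.01.

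Other mRNAs with a TOP motif did not share a direction. Of 15 tested, 4 were lower and 1 higher at 24 h, with a median of -0.11, where 19.2% and 12.5% of all genes tested were. EIF3E and NPM1, which encode an initiation factor subunit and a nucleolar chaperone, were lower at -0.55 each, and EIF3F was higher at 0.64 (SE 0.11, adjusted p = 0.00141 by limma). EIF3F had 7.18 and 7.44 in inhibited cells, against 6.67 in DMSO cells at 24 h and 7.08 and 7.26 in DMSO cells at 2 and 6 h, so the DMSO array of 24 h was the low one. Among 23 genes that control TOP mRNAs or ribosomal protein genes, 10 were lower and 2 higher, beside the same 19.2% and 12.5%. MYC, which activates ribosome genes, was lower at -0.86 (SE 0.10, adjusted p = 0.000143 by limma), and EIF4EBP1, a repressor of cap-dependent translation under mTOR, at -0.56. RPS6KB1, which encodes an S6 kinase, stood at -0.51 with an adjusted p of 0.0798 by limma. LARP1 was lower at -0.35 (SE 0.10, adjusted p = 0.0231 by limma). The 2 called higher were MTOR at 0.44 (SE 0.10, adjusted p = 0.00933) and TSC2 at 0.33 (SE 0.09, adjusted p = 0.0182), both by limma.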

How the data were processed

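Total RNA of A375P cells was measured on arrays in 9 groups with 1 column each. The authors deposited linear intensities that they had already processed. RMA, limma and R 2.8.0 appear in the submitters' processing notes with no role, and no source used here gives a genome build. Rows were named from the platform annotation, and for each gene the row with the highest mean was kept; 3339 rows with several symbols were left out. Values were taken as log2(intensity + 1), and the lowest 25% of the 17047 genes by mean were left out.

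Fits used limma 3.58.1 in R 4.3.3 (lmFit, eBayes) over all 12785 genes, with Benjamini-Hochberg adjustment. One fit had a coefficient for DMSO and for both inhibitors at each time (3 residual degrees of freedom), the other treatment and time (4). The fits were checked on simulated data. Precision is limited by the number of arrays and by the row read: the median SE at 24 h was 0.10 over all genes tested and 0.15 over the members read away from their own gene.

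The members and lists were chosen with earlier results of these data known. Values by array are given for the 8 largest rises and falls at 24 h, 3 each way at 2 h, at 6 h and between compounds, the stalk genes and paralog pairs, shortened for those not called. RPS26, RPS28 and RPL41 were named after their values were seen. Alternatives covered the filter, pseudocount, normalization, intensity trend, row choice, DMSO control and each array left out. The placement of rows used the gene order of RefSeq (GRCh38.p14) without regard to strand, and promoters are from RefSeq.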

Additional observations from a re-analysis of the deposited data

Results flagged for a closer look

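The change against DMSO differed between times in 4 of 54 ribosomal protein genes, by limma's F-test of the changes at 6 and 24 h against that at 2 h, where 14.9% of all genes tested did. RPL27A had changes of 0.00 at 2 h, -0.19 at 6 h and -0.81 at 24 h (adjusted p = 0.0128). RPL5, read by a row not between its gene's neighbours, had 0.32, 0.06 and -0.32 (adjusted p = 0.0141). RPL7 had 0.27, -0.29 and -0.30 (adjusted p = 0.0193), and RPLP1 had 0.07, -0.43 and -0.48 (adjusted p = 0.0399). In RPL5 and RPL7 the inhibitor arrays were above DMSO at 2 h, and in RPL27A and RPLP1 they were within 0.15 of it. Without the PD184352 array of 2 h, 2 members were called, RPL7 (adjusted p = 0.06) and RPLP1 (adjusted p = 0.108) no longer among them; without the PLX4720 array of 24 h, 7 were.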

How the results depend on the processing

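At 24 h the count of 10 members called stayed within 1.5 times under all alternatives except the mean of the 3 DMSO arrays as control, with 23, and leaving out single arrays, which gave 5 to 13. The count of 1 at 6 h was 0 with no filter, with quantile or cyclic loess normalization, with an intensity trend and with the mean DMSO control, 2 with the lowest 50% left out, and 0 to 2 with an array left out. For inhibited cells at 24 h against 2 h, 31 became 20 with all rows of a gene averaged and 20 to 33 with an array left out; at 6 h against 2 h, 0 became 1 with the lowest 50% left out or all rows averaged, and 0 to 1 with an array left out. The 4 genes whose change differed between times became 1 with all rows averaged and 2 to 7 with an array left out. RPL41 at 24 h turned to 0.05 with its 3 rows averaged. Counts at 2 h and for the compounds over the times were 0 under every alternative run. The cause of these shifts was not tested. Quantile normalization called 2256 genes lower and 2099 higher at 24 h, and cyclic loess 2321 and 2013, where the deposited scale gave 2449 and 1596. No paired analysis was possible because each group has a single column and the labels give no replicate numbers to pair by; arrays were matched by time alone, in the fit of treatment and time.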

Other observations

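Rows with several symbols were outside the rule, and 18 of them pair 1 ribosomal protein symbol with only snoRNAs, small guide RNAs encoded in introns of many ribosomal protein genes. These rows, chosen after the values were seen and not tested, had median changes of -0.02 at 2 h, -0.22 at 6 h and -0.22 at 24 h. All 18 were below 0 at 6 h (-0.43 to -0.02) and 16 at 24 h (-0.37 to 0.14), where 55.4% and 51.7% of all genes tested were. They rest on the same DMSO array of 6 h that was high in the members, and its part in these values was not tested.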
